A study of Rattus norvegicus with 18 samples.

Results

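The heat shock proteins and J-domain chaperones of rat tibialis anterior muscle were taken as the entries of the count table whose gene symbol starts with Hsp and a letter from a to h or a digit, or with Dnaja, Dnajb or Dnajc and a number. The rule gave 72 genes of 30560 entries. Hspa1a, Hspa1b and Hspg2 have no entry under those symbols and are not analysed here. RNA-seq was done on 18 muscle libraries in 5 groups. At 9 months of age there were 6 libraries labelled p16-null DMD, 3 labelled DMD and 3 of wild-type (WT) rats. DMD rats model Duchenne muscular dystrophy, the muscle disease caused by loss of dystrophin. The p16-null DMD rats share the DMD genotype and also lack p16, a cell cycle inhibitor encoded by Cdkn2a. The other libraries came from WT rats, 3 at 18 months and 3 at 3 months. How the alleles were made is not given in the sources used here. The design text counts as many rats as there are libraries in each group, while no label gives an animal number, so p-values refer to the variation among libraries.

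Chaperones keep proteins folded. Hsp70 proteins bind exposed stretches of a client, J-domain proteins deliver clients and trigger Hsp70's ATP hydrolysis, and Hsp110 proteins then exchange the nucleotide. Small heat shock proteins hold unfolding proteins without ATP and are abundant in muscle, where they sit at Z-discs and filaments. Hsp90 finishes folding of selected clients, among them myosin in muscle, and separate sets work in the endoplasmic reticulum (ER) and mitochondria. Cytosolic stress genes are switched on by heat shock factors at heat shock elements, and ER members by the unfolded protein response at ER stress elements.

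Promoter windows of 6 members are shown because each holds a match to one of these elements, and because these genes differed between groups in opposite directions or hold an element without a called difference in DMD. The windows run from 250 bases before to 50 bases after the gene start and were read from RefSeq on GRCr8, which is a later build than the one named for the counts. Of the 72 members 58 have a window of 300 bases. Matches are in capitals and everything else is in lower case. Hspa5 (BiP, the main Hsp70 of the ER) lies at chr3:38452766-38453065 on the plus strand, Hsp90b1 (GRP94, the Hsp90 of the ER) at chr7:23012244-23012543 on the minus strand and Dnajc3 (a J-domain partner of BiP) at chr15:102432417-102432716 on the plus strand. Hsph1 (Hsp110, an exchange factor for Hsp70) lies at chr12:10427118-10427417, Hspe1 (the mitochondrial co-chaperonin Hsp10) at chr9:64084077-64084376 and Hspb8 (a small heat shock protein) at chr12:45837058-45837357, each on the plus strand.
Hspa5: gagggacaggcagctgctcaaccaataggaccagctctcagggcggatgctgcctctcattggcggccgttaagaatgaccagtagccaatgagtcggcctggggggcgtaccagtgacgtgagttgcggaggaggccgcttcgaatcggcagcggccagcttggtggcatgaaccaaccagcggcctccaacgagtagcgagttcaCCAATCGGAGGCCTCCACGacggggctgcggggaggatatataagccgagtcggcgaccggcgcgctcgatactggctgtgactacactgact
Hsp90b1: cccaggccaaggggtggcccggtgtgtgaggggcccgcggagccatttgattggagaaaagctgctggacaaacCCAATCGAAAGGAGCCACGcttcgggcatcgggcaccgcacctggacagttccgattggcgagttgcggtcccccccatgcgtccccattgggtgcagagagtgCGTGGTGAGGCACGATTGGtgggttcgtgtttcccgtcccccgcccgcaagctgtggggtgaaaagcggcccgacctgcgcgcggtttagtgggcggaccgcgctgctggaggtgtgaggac
Dnajc3: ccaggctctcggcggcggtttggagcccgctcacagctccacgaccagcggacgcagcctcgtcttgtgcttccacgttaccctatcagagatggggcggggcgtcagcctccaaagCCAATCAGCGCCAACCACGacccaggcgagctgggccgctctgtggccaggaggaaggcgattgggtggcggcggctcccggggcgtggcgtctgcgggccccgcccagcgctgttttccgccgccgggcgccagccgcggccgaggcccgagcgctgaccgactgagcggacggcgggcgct
Hsph1: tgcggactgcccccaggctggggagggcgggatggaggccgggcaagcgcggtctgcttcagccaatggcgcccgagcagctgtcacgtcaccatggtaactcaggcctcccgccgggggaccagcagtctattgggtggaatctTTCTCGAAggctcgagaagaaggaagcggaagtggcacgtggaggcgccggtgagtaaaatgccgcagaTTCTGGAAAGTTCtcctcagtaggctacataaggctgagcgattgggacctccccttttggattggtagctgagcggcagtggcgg
Hspe1: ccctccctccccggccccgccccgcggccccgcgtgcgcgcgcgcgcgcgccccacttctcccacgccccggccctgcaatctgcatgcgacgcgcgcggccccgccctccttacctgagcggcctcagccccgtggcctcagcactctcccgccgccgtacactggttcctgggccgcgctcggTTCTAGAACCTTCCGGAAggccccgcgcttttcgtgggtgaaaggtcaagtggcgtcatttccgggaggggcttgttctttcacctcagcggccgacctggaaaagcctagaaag
Hspb8: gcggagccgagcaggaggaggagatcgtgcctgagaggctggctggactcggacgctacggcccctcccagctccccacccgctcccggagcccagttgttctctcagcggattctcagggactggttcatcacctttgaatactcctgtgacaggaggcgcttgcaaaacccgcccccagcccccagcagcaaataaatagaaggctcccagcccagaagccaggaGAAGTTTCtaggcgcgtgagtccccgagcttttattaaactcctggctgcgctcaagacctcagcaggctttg

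The ER stress element was searched as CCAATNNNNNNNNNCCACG on both strands. It stood in 22 of 33469 promoter windows (0.0657%), and 3 of these were members: Hspa5, Hsp90b1 with 2 matches, and Dnajc3. The heat shock element was searched as 3 alternating units, GAANNTTCNNGAA on both strands, and was found in 0.798% of all windows and in 5 of 58 member windows (8.62%): Hspa8, Hsph1, Hspd1, Hspe1 and Dnaja1. With 2 units, GAANNTTC or TTCNNGAA, each of which reads the same on both strands and is contained in the longer element, the shares were 15.9% of all windows and 16 of 58 member windows (27.6%). Hspb8 had 1 such short match, 23 bases before the gene start. Hspd1 (the chaperonin Hsp60) and Hspe1 are transcribed away from each other, their windows share 211 bases, and the capitals in the Hspe1 window are the element that both share. A match describes these letters only and does not show that a factor binds there.

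**Figure D1:**
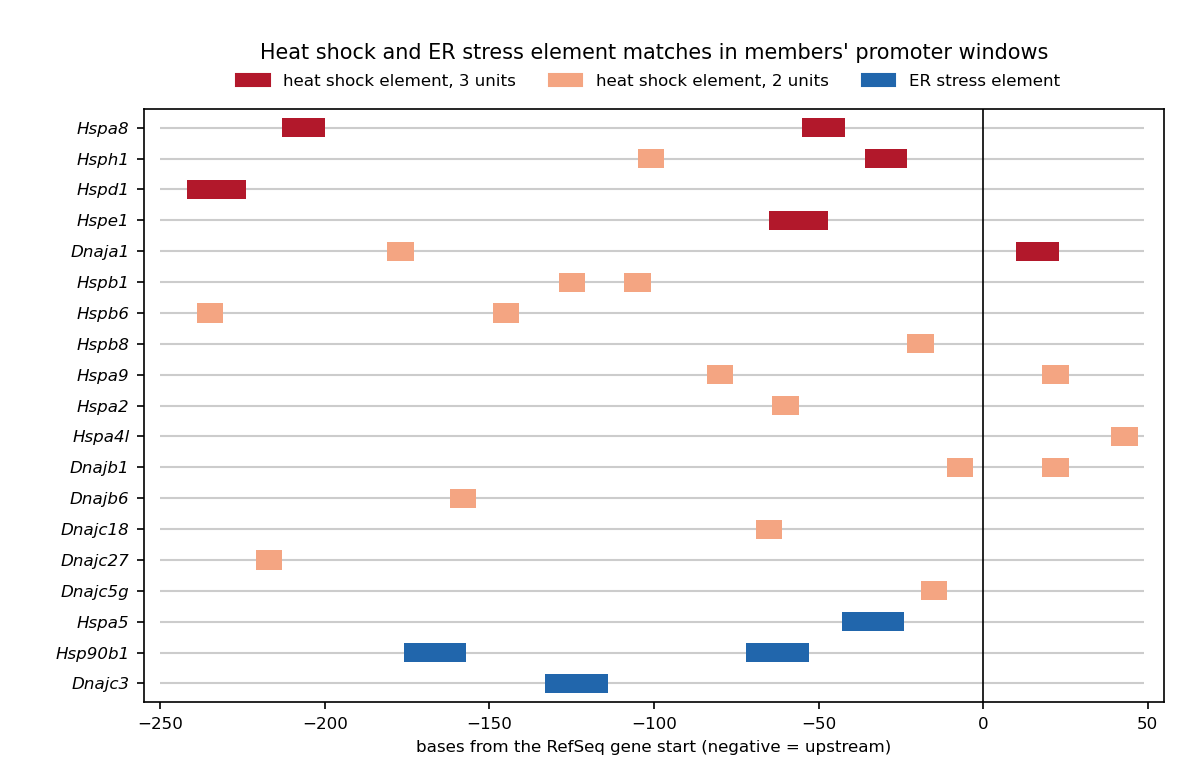
Positions of heat shock and ER stress element matches in the promoter windows of the 19 members that hold one, in bases from the RefSeq gene start, with negative positions upstream. The ER stress element is found in 3 members, and Hspa8 has 2 separate matches of the 3-unit heat shock element.

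Each library held 9607819 to 21992631 estimated counts. Dmd, which encodes dystrophin, was low in the mutants, at 30.9 to 54.05 CPM (read counts relative to library size, after TMM scaling) in p16-null DMD and 31.4 to 44.3 CPM in DMD, against 113.6 to 167.5 CPM in WT libraries of 9 months. Cdkn2a stood at 10.1 to 15.3 CPM in p16-null DMD and 10.7 to 19.4 CPM in DMD libraries. That count covers the whole gene, which also encodes Arf, and where the deletion lies is not given in the sources used here, so it does not check the p16-null label. Markers of several cell types differed between groups as well. All 7 macrophage markers were detected in every group, and their summed level was 1330 to 3990 CPM in p16-null DMD and 1960 to 3090 CPM in DMD, against 318 to 352 CPM in WT at 9 months. The 4 fast fibre markers analysed summed to 15200 to 33500 CPM in p16-null DMD and 19600 to 31000 CPM in DMD, against 82200 to 88500 CPM in WT at 9 months. They summed to 46500 to 52000 CPM in WT at 18 months, against 73800 to 79500 CPM at 3 months. The 6 fibroblast markers summed to 5030 to 13900 CPM in p16-null DMD and 4830 to 9180 CPM in DMD, against 1950 to 2090 CPM in WT at 9 months. The 5 markers of regenerating fibres summed to 678 to 1250 CPM in p16-null DMD and 650 to 1150 CPM in DMD, against 69.2 to 93.9 CPM in WT at 9 months, and to 477 to 492 CPM in WT at 18 months, against 98.7 to 112 CPM at 3 months. The 4 adipocyte markers summed to 341 to 1900 CPM in p16-null DMD and 1420 to 1470 CPM in DMD, against 291 to 334 CPM in WT at 9 months. Between the ages, macrophage markers summed to 538 to 779 CPM at 18 months, against 302 to 458 CPM at 3 months, and fibroblast markers to 1840 to 2070 CPM at 18 months, against 3330 to 6410 CPM at 3 months. Of these 6 fibroblast markers 3 were called lower at 18 months and 3 did not pass, with log2 fold changes from -2.87 to 0.45. The sums of endothelial and of slow fibre markers overlapped between the groups of each comparison, although single markers were called. Of 5 slow fibre markers 2 were higher and 0 lower at 18 than at 3 months (median log2 fold change 0.74), beside 9.31% of all genes higher. In p16-null DMD against WT 1 of these 5 was higher. Of 4 endothelial markers 1 was lower in DMD, 1 higher and 1 lower in p16-null DMD against WT, and 1 lower at 18 months. None of these markers was at 0. The part of these markers in the results below was not tested, and in such bulk samples fewer cells of a type and less RNA per cell cannot be told apart.

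On the length-scaled TPM values, which allow levels of different genes to be compared, Hspa8 (Hsc70, the constitutive cytosolic Hsp70) was the most abundant member on average in every group. Its mean level was 1213 ± 146 TPM in p16-null DMD (SD, n = 6), 1275 ± 166 TPM in DMD, 969 ± 99.8 TPM in WT at 9 months, 1047 ± 55.1 TPM in WT at 18 months and 736 ± 68.9 TPM in WT at 3 months (SD, n = 3 each). In WT at 9 months Hsp90ab1, the constitutive Hsp90, followed at 592 ± 20.2 TPM and the muscle small heat shock protein Hspb6 at 558 ± 52.9 TPM. These 2 neighbours were closer than their spread. Hspb8 at 375 ± 11.1 TPM and Hspb1 at 349 ± 102 TPM came next and overlapped as well. Among mitochondrial members Dnajc19 (216 ± 23.0 TPM), Hspe1 (161 ± 17.5 TPM) and Hspa9 (144 ± 12.2 TPM) led at 9 months in WT. Hspa5 was at 91.1 ± 10.9 TPM there and the stress-inducible Hsp90aa1 at 88.97 ± 24.8 TPM.

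Members whose counts can be shared with near-identical copies are less certain. RefSeq names 33 pseudogenes of Hspa8, 23 of Hsp90ab1, 20 of Hspd1, 16 of Hsp90aa1 and 10 of Dnajb6, and 18 of the 72 members have at least 1. How reads were divided among such copies is not given in the sources used here. Of the 72 members 66 passed the filter on low counts in the fit of the 9-month groups. Dnajb7, Dnajb8, Dnajb13, Dnajc5b, Dnajc5g and Hspb9 did not. Dnajb8 had 0 counts in all 18 libraries. Dnajb13 had 0 counts in all 9 WT libraries, 6 to 15 counts in the DMD libraries and 0 to 12 counts in the p16-null DMD libraries. It passed the filter only in some fits that left out 1 library, through the DMD libraries, and is given here by its counts alone. Dnajb3 and Dnajc6 were tested, but no WT library of 9 months reached the filter's level for either and no WT library of 3 months for Dnajc6, so they entered through the groups where they were higher and their calls support nothing.

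The first comparison asks what differs in dystrophic muscle at 9 months. On the TMM scale the mitochondrial chaperones fell as a set in DMD muscle. The muscle J-domain protein Dnajb5 and the small heat shock proteins Hspb2, Hspb3 and Hspb6 fell too. The ER chaperones Hspa5, Hsp90b1 and Dnajc1 rose, while the median log2 fold change of the 9 listed ER members was 0.10. The Hspa5 call was lost without any 1 of the DMD or WT libraries, and that of Hsp90b1 without WT replicate 1 or DMD replicate 3. Of the 66 members tested 4 were higher, Dnajb3 among them, and 31 lower in DMD than in WT (edgeR quasi-likelihood test, adjusted p under 0.05). Of all 14801 genes 26.4% were higher and 21.8% lower. The median log2 fold change of the members was -0.39, beside 0.11 for all genes tested.

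The scale matters for these counts. Scaled by library totals, 21 members were higher and 7 lower in DMD, and with limma on log2(TPM + 1) 28 were higher and 7 lower. The median of all genes was then 0.76 by library totals and 0.64 by TPM, while the members' median stood below it at 0.26 and 0.32. Set against all genes, the members' median was lower by 0.50 with TMM and with library totals and by 0.32 with TPM. The agreement of TMM and library totals is given by the method, since changing between them shifts all genes by nearly the same amount. Likewise, the summed level of all 72 members was 6280 ± 610 CPM in DMD and 8920 ± 880 CPM in WT with TMM scaling, but 6220 ± 349 TPM in DMD and 5340 ± 327 TPM in WT (SD, n = 3 each). Under all 3 scalings 7 members were called lower, namely Dnaja3, Dnajb5, Dnajc15, Dnajc19, Dnajc21, Dnajc28 and Hspa9, and Dnajc1, Hsp90b1 and Hspa5 higher, beside Dnajb3 with the limit given above. Every other fall below is a fall relative to the TMM scale, where most genes set the zero.

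**Figure D2:**
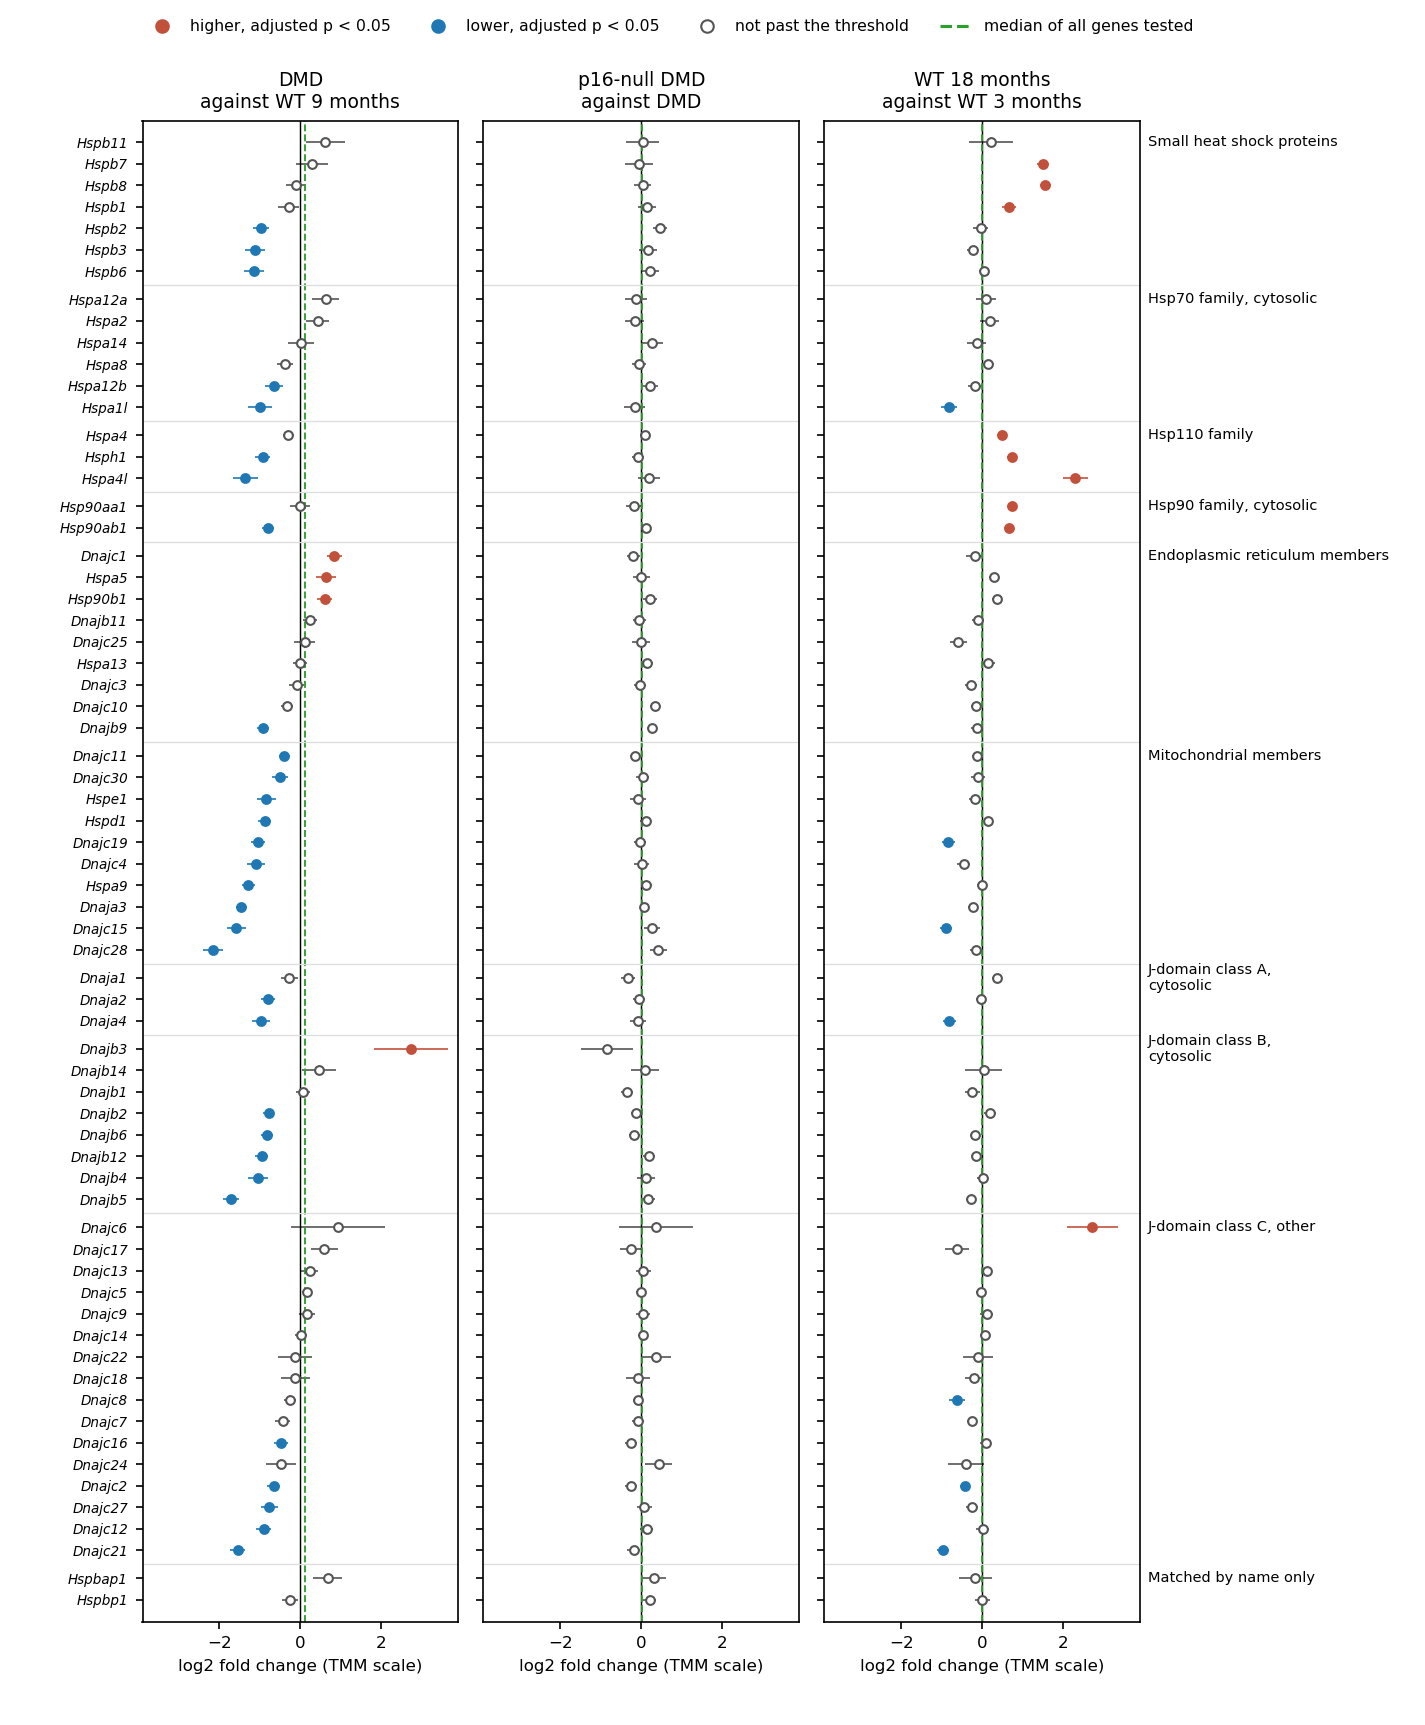
Log2 fold change ± SE of the 66 members tested at 9 months (65 between the ages), by family, for DMD against WT, p16-null DMD against DMD and WT at 18 against 3 months. Filled points passed an adjusted p of 0.05 (red higher, blue lower), open points did not, and the dashed line is the median of all genes tested. All 10 mitochondrial members lie left of 0 in the first panel, no point is filled in the second, and all 3 Hsp110 members lie right of 0 in the third.

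**Figure D3:**
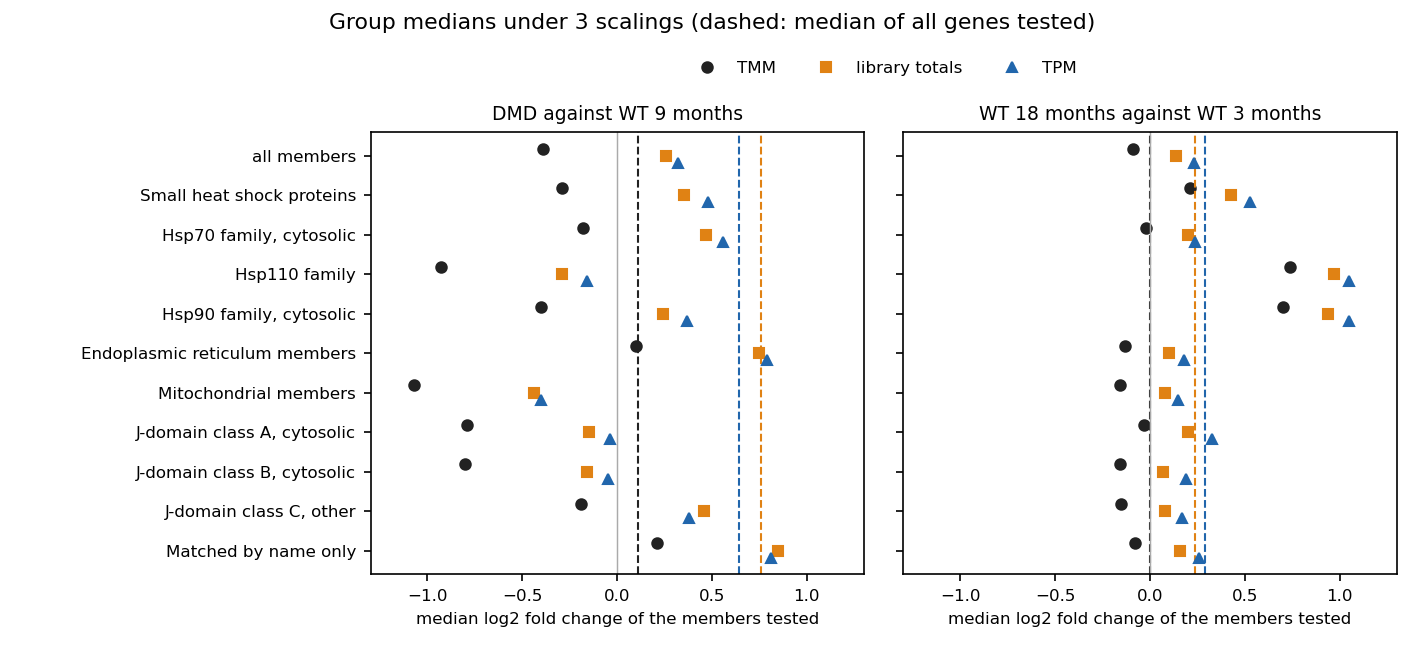
Median log2 fold change of each family (points) and of all genes tested (dashed lines) under TMM, library totals and TPM, for DMD against WT at 9 months and for WT at 18 against 3 months. In DMD every family median shifts right with the other scalings, and the mitochondrial median stays left of 0 under all 3, at -1.07, -0.44 and -0.40.

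All 10 mitochondrial members were lower in DMD on the TMM scale, beside 21.8% of all genes. Their median log2 fold change was -1.07. By library totals 5 were lower and none higher, and by TPM 5 were lower and 1, Dnajc11, was higher. Hspa9 (mortalin, the mitochondrial Hsp70 that pulls proteins through the inner membrane) stood at 180.1, 156.6 and 150.4 CPM in DMD, against 362.8, 443.0 and 385.9 CPM in WT. Every DMD library lay below every WT library, and the fall was 1.28 ± 0.15 on the log2 scale (SE, edgeR adjusted p = 1.43e-05). Dnaja3 (Tid1, the J-domain partner of Hspa9 in the matrix) had 56.8, 54.3 and 48.4 CPM in DMD, against 154.5, 147.9 and 137.2 CPM in WT. The groups were again apart, with a fall of 1.46 ± 0.14 on the log2 scale (edgeR adjusted p = 2.53e-06).

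Dnajc28, a J-domain gene of the mitochondrial list, showed the largest fall of any member. It had 9.74, 5.12 and 7.13 CPM in DMD, against 34.3, 35.2 and 28.6 CPM in WT, a fall of 2.15 ± 0.24 on the log2 scale (edgeR adjusted p = 8.46e-06). Of the J-domain proteins of the inner membrane import motor, Dnajc15 fell by 1.58 ± 0.23 and Dnajc19 by 1.05 ± 0.18 (log2 scale). The genes of the folding chamber, Hspd1 and Hspe1, also fell. Hspd1 had 100.1, 102.9 and 109.8 CPM in DMD, against 190.5, 207.3 and 180.5 CPM in WT, and Hspe1 had 36.5, 40.1 and 24.8 CPM in DMD, against 52.4, 67.8 and 62.5 CPM in WT. Both pairs of groups were apart, with falls of 0.88 ± 0.16 and 0.84 ± 0.23 on the log2 scale for these genes, whose gene starts share 1 heat shock element. Their calls were lost by library totals and by TPM. Dnajc11 (fall of 0.40 ± 0.14) and Dnajc30 (fall of 0.51 ± 0.19) were the smallest of the set. Dnajc11 lost its call without WT replicate 1 or 2 or DMD replicate 2 or 3 (adjusted p 0.0504 to 0.107), and Dnajc30 without WT replicate 1 or 3, DMD replicate 1 or 3 or p16-null DMD replicate 4 (adjusted p 0.051 to 0.163).

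**Figure D4:**
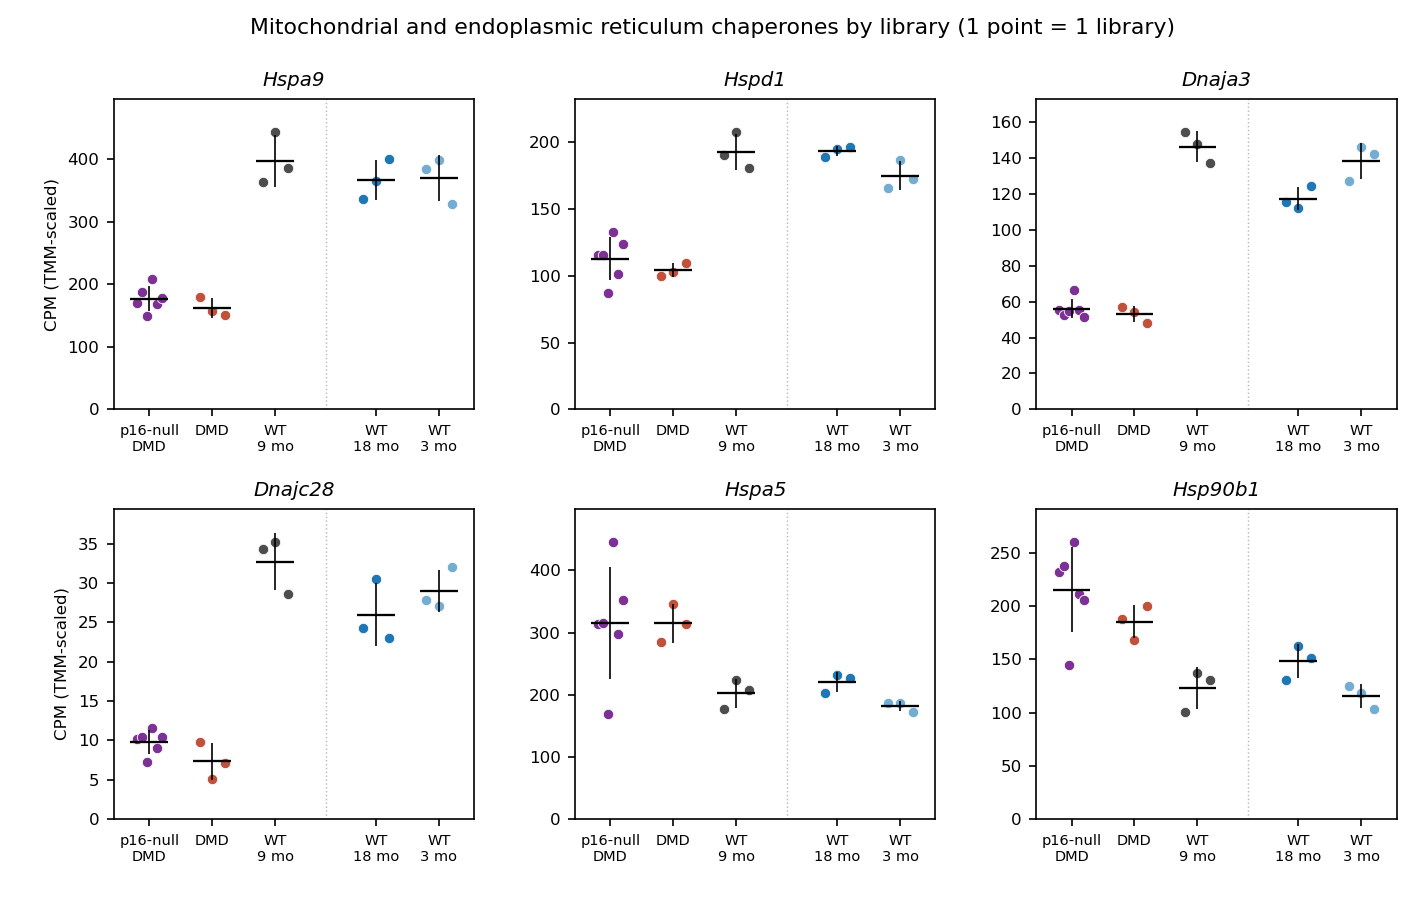
CPM after TMM scaling of 4 mitochondrial members and 2 ER members, 1 point per library, with the group mean (bar) and SD (line). For Hspa9, Hspd1, Dnaja3 and Dnajc28 all p16-null DMD and DMD points lie below all WT points of 9 months, while for Hspa5 and Hsp90b1 all DMD points lie above the WT points of 9 months.

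Of the 9 members on the ER list 3 rose in DMD and 1 fell, beside the 26.4% and 21.8% of all genes. The median of this list was 0.10, beside 0.11 for all genes. The list leaves out other J-domain proteins of the ER. Of these, Dnajb12 and Dnajc16 were called lower on the TMM scale. Dnajb14, Dnajc14 and Dnajc18 were not called there, and Dnajb14 and Dnajc14 were called higher by library totals. Hspa5 stood at 284.5, 346.4 and 313.4 CPM in DMD, against 176.5, 223.0 and 207.2 CPM in WT. No library overlapped, and the rise was 0.64 ± 0.25 on the log2 scale (edgeR adjusted p = 0.0429). This call was lost without any 1 of the DMD or WT libraries, or without p16-null DMD replicate 2 or 5, with an adjusted p of 0.0518 to 0.133 and a change of 0.56 to 0.72. Hsp90b1 stood at 187.5, 168.5 and 199.6 CPM in DMD, against 100.1, 137.5 and 130.6 CPM in WT, a rise of 0.60 ± 0.19 on the log2 scale (edgeR adjusted p = 0.0174). Its groups were apart too. Leaving out WT replicate 1 (0.48, adjusted p = 0.0828) or DMD replicate 3 (0.55, adjusted p = 0.0558) ended the call. Dnajc1 (ERdj1, a membrane J-domain protein that docks at ribosomes) had 16.9, 21.2 and 17.5 CPM in DMD, against 8.69, 12.2 and 10.48 CPM in WT. All DMD libraries were higher, with a rise of 0.84 ± 0.19 on the log2 scale (edgeR adjusted p = 0.00179), and this was the 1 rise still called when WT replicate 1 was left out.

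Dnajb9 (ERdj4, which targets misfolded proteins for degradation) moved the other way. It averaged 24.7 ± 0.78 CPM in DMD and 46.9 ± 5.05 CPM in WT (SD, n = 3 each), a fall of 0.92 ± 0.15 on the log2 scale (edgeR adjusted p = 0.000119). Dnajc3, which carries the same ER stress element as Hspa5 and Hsp90b1, averaged 29.5 ± 3.23 CPM in DMD and 31.6 ± 1.81 CPM in WT, a log2 fold change of -0.09 ± 0.18 that did not pass (edgeR adjusted p = 0.698). By library totals Dnajc3 was higher by 0.55. The other folding genes of the ER gave more rises: of 13 partners tested 9 were higher and 1 lower, beside 26.4% and 21.8% of all genes. Their median was 0.74, beside 0.11 for all genes. Sdf2l1, a partner of BiP, had 17.0, 18.1 and 17.8 CPM in DMD, against 5.91, 3.92 and 6.71 CPM in WT. That was a rise of 1.67 ± 0.35 on the log2 scale (edgeR adjusted p = 0.00107). The oxidoreductases Pdia3 and P4hb rose by 1.02 ± 0.16 and 0.76 ± 0.18 on the log2 scale, and these 3 partners were called higher under all 3 scalings.

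Among small heat shock proteins 3 of 7 tested fell in DMD on the TMM scale and none rose, beside 21.8% and 26.4% of all genes. Hspb6 (Hsp20) stood at 374.5, 423.8 and 256.4 CPM in DMD, against 796.7, 890.1 and 655.0 CPM in WT. The groups did not overlap, and the fall was 1.14 ± 0.26 on the log2 scale (edgeR adjusted p = 0.00187). Hspb2 and Hspb3, which form a complex with each other in muscle, changed by -0.97 ± 0.20 and -1.12 ± 0.25 (log2). None of these 3 falls was called by library totals or TPM. The related crystallin Cryab had 385.8, 526.0 and 301.9 CPM in DMD, against 793.3, 1261 and 814.7 CPM in WT, a fall of 1.24 ± 0.36 on the log2 scale (edgeR adjusted p = 0.00988). Leaving out WT replicate 2 (-0.98, adjusted p = 0.0524) or scaling by library totals (-0.61, adjusted p = 0.157) ended the call.

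Hspb1, Hspb7 and Hspb8 did not pass in DMD. Hspb8 (a partner of Bag3 in clearing damaged Z-disc proteins) had 390.0, 689.8 and 463.8 CPM in DMD, against 549.0, 610.5 and 519.3 CPM in WT. The groups overlapped, at a log2 fold change of -0.12 ± 0.25 (edgeR adjusted p = 0.722), and by TPM the change was 0.61 in the other direction. Hspb7 spread widely in both groups, with 263.5, 415.8 and 249.9 CPM in DMD and 185.3, 412.4 and 165.0 CPM in WT. WT replicate 2, the shallowest library at 9607819 counts, was the high WT value. Hspb1 (Hsp27) averaged 201 ± 68.2 CPM in DMD and 246.5 ± 85.35 CPM in WT (SD, n = 3 each) and overlapped. Hspb11, a ciliary transport protein despite its name, was low throughout, at 2.97 ± 0.033 CPM in DMD and 1.95 ± 0.49 CPM in WT.

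Of the 3 Hsp110 members 2 fell in DMD, beside 21.8% of all genes. Hsph1 stood at 43.3, 45.6 and 44.0 CPM in DMD, against 77.9, 92.0 and 85.0 CPM in WT, with no overlap and a fall of 0.93 ± 0.17 on the log2 scale (edgeR adjusted p = 0.000489). Hspa4l, a further exchange factor, was at 2.63, 2.67 and 3.19 CPM in DMD, against 5.39, 8.10 and 8.36 CPM in WT, and fell by 1.36 ± 0.32 on the log2 scale (edgeR adjusted p = 0.00261). Hspa4 gave -0.30 ± 0.13 and did not pass in edgeR with TMM. Other settings called it in opposite directions. It was lower by DESeq2 (-0.33, DESeq2 adjusted p = 0.0263), but higher by library totals (0.345, edgeR adjusted p = 0.046) and by TPM (0.46, limma adjusted p = 0.00756). Of the Hsp90 pair, Hsp90ab1 had 722.3, 704.7 and 679.1 CPM in DMD, against 1201, 1286 and 1193 CPM in WT. It fell by 0.80 ± 0.14 on the log2 scale (edgeR adjusted p = 0.000364), whereas Hsp90aa1 averaged 203 ± 37.5 CPM in DMD and 204 ± 63.4 CPM in WT and overlapped. None of these falls was called by library totals, and Hsp90aa1 was then higher by 0.63. Of 6 cytosolic Hsp70 members Hspa1l and Hspa12b fell, beside the same 21.8% of all genes. Hspa1l (-1.004 ± 0.30) was not called when WT replicate 1 (adjusted p = 0.0597) or DMD replicate 3 (adjusted p = 0.0628) was left out. Hspa12b (fall of 0.65 ± 0.23) lost it without WT replicate 1 or 2 or DMD replicate 2 or 3 (adjusted p 0.0609 to 0.113). Hspa8 had 1257, 1475 and 1516 CPM in DMD, against 1651, 2130 and 1744 CPM in WT. These groups did not overlap, but the log2 fold change of -0.38 ± 0.19 did not pass (edgeR adjusted p = 0.12). Hspa2, a further cytosolic Hsp70 member, did not pass on the TMM scale. It was called higher in DMD by library totals (1.07, edgeR adjusted p = 0.0051) and by TPM (0.985, limma adjusted p = 0.00376). In p16-null DMD against WT it was likewise called higher by library totals (0.87, edgeR adjusted p = 0.00827) but not with TMM.

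Of class A and B J-domain proteins outside the mitochondrial and ER lists, 2 of 3 and 5 of 8 tested fell in DMD. Of all genes 21.8% were lower. Dnajb5, a muscle relative of Dnajb1, had 70.8, 107.5 and 73.9 CPM in DMD, against 248.2, 297.3 and 286.5 CPM in WT. All DMD libraries were lower, with a fall of 1.72 ± 0.19 on the log2 scale (edgeR adjusted p = 7.94e-06). Dnajb6, whose human gene is mutated in a limb-girdle muscular dystrophy, averaged 73.5 ± 11.3 CPM in DMD and 130 ± 12.4 CPM in WT (SD, n = 3 each). It fell by 0.81 ± 0.15 on the log2 scale (edgeR adjusted p = 0.000355), but by TPM the difference was 0.005. Dnajb4 had 25.2, 27.2 and 21.8 CPM in DMD, against 33.3, 80.0 and 40.9 CPM in WT, with WT replicate 2 again the highest. Its fall was 1.04 ± 0.25 on the log2 scale (edgeR adjusted p = 0.00338). Dnaja2, Dnaja4, Dnajb2 and Dnajb12 fell by 0.79 to 0.97 on the log2 scale. Dnajb1, the main stress-inducible partner of Hsp70, averaged 32.5 ± 3.56 CPM in DMD and 31.3 ± 4.29 CPM in WT, a log2 fold change of 0.06 ± 0.17 that did not pass. It was called higher by library totals (0.71, edgeR adjusted p = 0.00221) and by TPM (0.79, limma adjusted p = 0.00103), so this result depends on the scale.

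Dnajb3 had few reads, with 9, 37 and 22 counts in DMD, against 2, 0 and 4 counts in WT. Its call as higher rests on the filter being met in the mutants, and leaving out WT replicate 1 or 2 or DMD replicate 2 ended it (adjusted p 0.0704 to 0.079). Of 16 other class C members tested 5 fell and none rose, beside 21.8% lower and 26.4% higher of all genes. The largest of these falls was in Dnajc21, a factor in ribosome maturation, with 22.6, 38.7 and 24.7 CPM in DMD, against 79.7, 77.5 and 95.2 CPM in WT. The groups were apart, with a fall of 1.55 ± 0.19 on the log2 scale (edgeR adjusted p = 1.76e-05). Hspbp1 and Hspbap1, a regulator of Hsp70 and a protein that binds Hspb1, matched by name only and did not pass.

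Partner genes of the chaperones were counted from fixed lists. Of 22 co-chaperones 13 were lower and 1 higher in DMD, of 10 mitochondrial partners and proteases 8 were lower and none higher, and of 13 subunits of the cytosolic chaperonin and prefoldin 2 were lower and none higher, beside 21.8% lower and 26.4% higher of all genes. Their median log2 fold changes were -0.66, -0.96 and -0.13 in that order, beside 0.11 for all genes, so the chaperonin and prefoldin count was no higher than that background. The myosin folding factors Smyd1 and Unc45b changed by -1.98 ± 0.24 and -1.60 ± 0.20 (log2), and the Hsp90 partner Fkbp4 by -1.91 ± 0.21. Smyd1 averaged 75.6 ± 15.1 CPM in DMD and 300 ± 30.1 CPM in WT (SD, n = 3 each). The exception was Fkbp5, a glucocorticoid-induced Hsp90 partner, which rose by 1.71 ± 0.25 on the log2 scale, with 166 ± 25.6 CPM in DMD and 50.7 ± 14.05 CPM in WT. Among mitochondrial partners the disaggregase Clpb fell by 1.26 ± 0.18, the unfoldase Clpx by 1.18 ± 0.16 and the exchange factor Grpel1 by 1.03 ± 0.17 on the log2 scale. All of these named partners but Grpel1 were called in the same direction by library totals and TPM. Of 4 heat shock factors and regulators tested 3 were lower, among them Hsbp1, an inhibitor of Hsf1 (-0.49 ± 0.15, edgeR adjusted p = 0.0151), whose change was 0.15 by library totals. The heat shock factors Hsf1 (-0.62 ± 0.22) and Hsf4 (-0.76 ± 0.29) passed on the TMM scale (edgeR adjusted p = 0.0319 and 0.0397). Their groups overlapped and neither call held by library totals, where Hsf1 stood at 0.02, or when WT replicate 1 was left out (adjusted p = 0.162 and 0.133).

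The second comparison asks what loss of p16 adds in DMD muscle. No member passed: of 66 tested, 0 were higher and 0 lower in p16-null DMD than in DMD, beside 0.0% higher and 0.00676% lower of all 14801 genes (edgeR). The median log2 fold change of the members was 0.04, beside 0.02 for all genes. At an unadjusted p under 0.05 there were 3 of 66 members, Dnajb1, Dnajc10 and Hspb2, beside 764 of 14801 genes, which is a like share, and DESeq2, limma on TPM and scaling by library totals also called 0 after adjustment. Dnajb1 ran from 21.9 to 30.2 CPM with a median of 23.9 CPM in the 6 p16-null DMD libraries, against 29.0, 32.5 and 36.1 CPM in DMD, and these overlapped (log2 fold change -0.35 ± 0.14, edgeR adjusted p = 0.842). Hspb2 ran from 21.4 to 35.3 CPM with a median of 25.7 CPM in p16-null DMD, against 18.2, 18.4 and 22.8 CPM in DMD, and overlapped too (0.46 ± 0.17, edgeR adjusted p = 0.815). Hspa9 ran from 149.9 to 208.2 CPM with a median of 173.7 CPM in p16-null DMD, within which the 3 DMD libraries at 150.4 to 180.1 CPM lay (0.12 ± 0.13, edgeR adjusted p = 0.985). Dnajc10, an ER J-domain reductase, ran from 61.4 to 77.7 CPM with a median of 67.2 CPM in p16-null DMD, against 45.0, 54.6 and 61.3 CPM in DMD, and here the groups did not overlap (0.34 ± 0.13, edgeR adjusted p = 0.815). A p that misses the threshold does not show that the groups are alike.

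Set against WT at 9 months, 4 members were higher and 34 lower in p16-null DMD, beside 27.5% higher and 22.7% lower of all genes (edgeR). This comparison uses the same 3 WT libraries as that of DMD, so the counts are not independent of each other. By library totals 24 were higher and 10 lower. All 10 mitochondrial members were lower again on the TMM scale, with Hspa9 at -1.16 ± 0.13, Dnaja3 at -1.38 ± 0.11 and Dnajc28 at -1.73 ± 0.19, beside -1.28, -1.46 and -2.15 in DMD. In the ER, Hsp90b1 ran from 144.9 to 260.2 CPM with a median of 221.7 CPM in p16-null DMD, against 100.1 to 137.5 CPM in WT, and rose by 0.82 ± 0.17 on the log2 scale (edgeR adjusted p = 0.00108). Hspa5 rose by 0.65 ± 0.22 (edgeR adjusted p = 0.023), although p16-null DMD replicate 3, at 168.3 CPM, lay below all WT libraries, and the call ended when WT replicate 1 (0.56, adjusted p = 0.101) or 3 (0.66, adjusted p = 0.0628) was left out. Hspa8 and Dnaja1 passed here as falls of 0.43 ± 0.16 and 0.61 ± 0.18. The Hspa8 call was lost without WT replicate 2 or 3 or p16-null DMD replicate 2, 3 or 5 (adjusted p 0.0653 to 0.199), and that of Dnaja1 when WT replicate 2 was left out (adjusted p = 0.0825). By TPM both were above 0, at 0.32 and 0.145. Hspbap1 was called higher, but only 2 of the 3 WT libraries reached the filter's level, and the call did not hold when WT replicate 2 was left out (0.66, adjusted p = 0.0852).

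The third comparison asks what differs with age in WT muscle. At 18 months the small heat shock proteins Hspb7, Hspb8 and Hspb1, all 3 Hsp110 members and both cytosolic Hsp90 genes were higher than at 3 months, and the J-domain genes Dnajc15, Dnajc19, Dnajc21 and Dnaja4 were lower. Of 65 members tested 9 were higher, Dnajc6 among them, and 7 lower, beside 9.31% higher and 10.1% lower of all 13487 genes (edgeR). The members' median log2 fold change was -0.09, beside 0.00 for all genes. By library totals 15 were higher and 5 lower, with the median of all genes at 0.24. All 9 rises, that of Dnajc6 with the limit given above, and 4 of the falls, those of Dnaja4, Dnajc15, Dnajc19 and Dnajc21, were called under TMM, library totals and TPM.

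**Figure D5:**
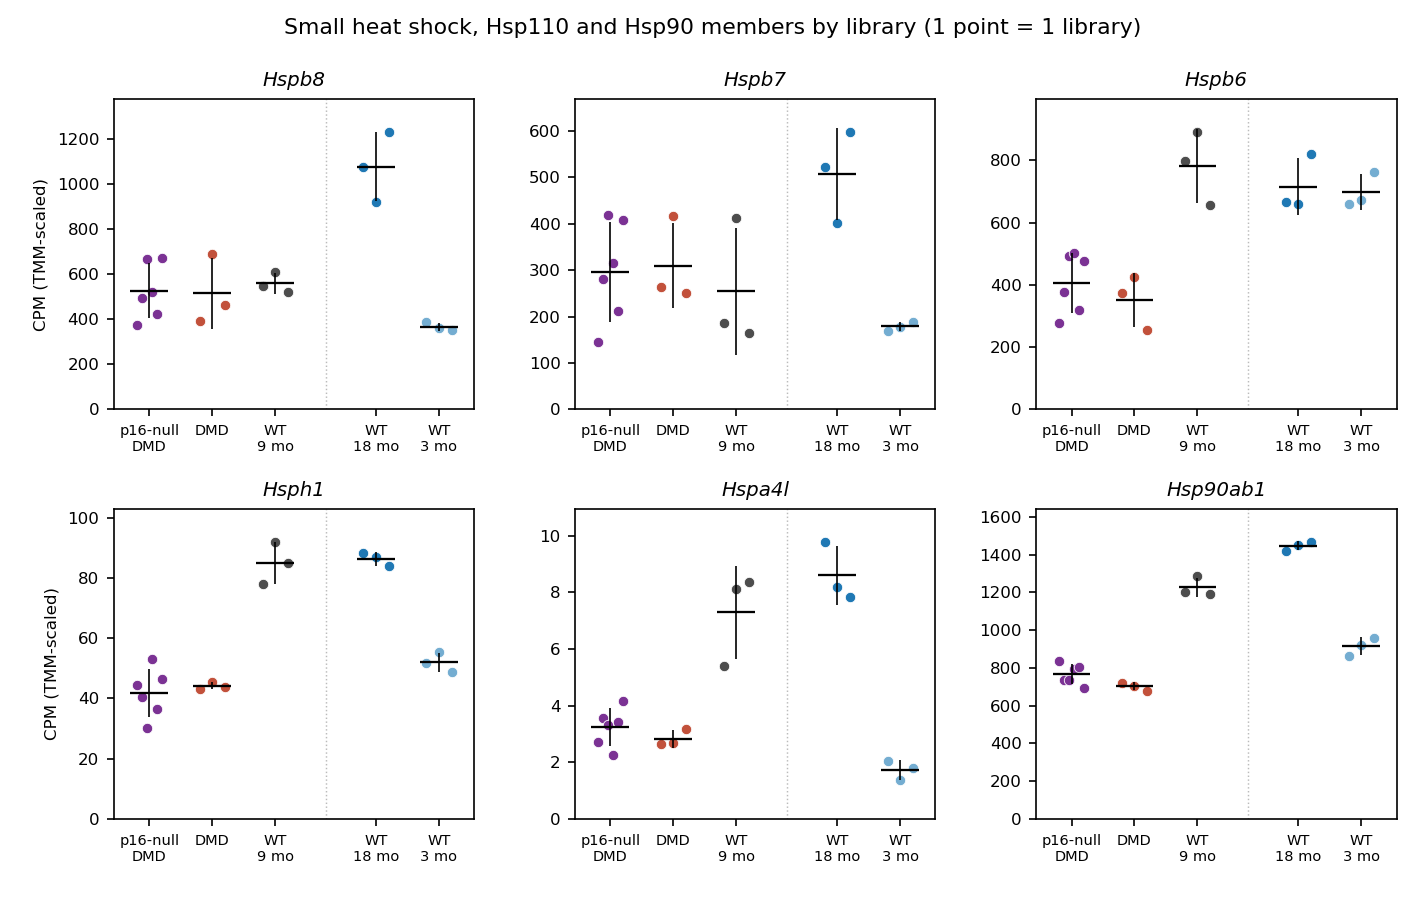
CPM after TMM scaling of 3 small heat shock, 2 Hsp110 and 1 Hsp90 member, 1 point per library, with the group mean (bar) and SD (line). For all of these but Hspb6 the WT points of 18 months lie above those of 3 months, and for Hspb6, Hsph1, Hspa4l and Hsp90ab1 the p16-null DMD and DMD points lie below the WT points of 9 months.

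Hspb8 showed the clearest of these rises. It had 1077, 922 and 1229 CPM at 18 months, against 385.4, 360.3 and 350.6 CPM at 3 months, and every library of 18 months was above every library of 3 months. The rise was 1.56 ± 0.14 on the log2 scale (edgeR adjusted p = 2.99e-06). Hspb7, a small heat shock protein of heart and skeletal muscle, had 522.1, 401.5 and 597.3 CPM at 18 months, against 169.5, 177.2 and 189.2 CPM at 3 months, a rise of 1.51 ± 0.15 (edgeR adjusted p = 7.42e-06). WT muscle of 9 months lay between in the mean of Hspb8, with 365 ± 18.0, 560 ± 46.5 and 1076 ± 154 CPM at 3, 9 and 18 months (SD, n = 3 each), although the 9-month libraries were not part of this test. Hspb1 had 234.7, 259.0 and 376.1 CPM at 18 months, against 148.4, 190.3 and 213.1 CPM at 3 months, a smaller rise of 0.67 ± 0.18 (edgeR adjusted p = 0.0153). Its call was lost without the highest 18-month library, replicate 3 (0.44, adjusted p = 0.0798), without replicate 1 of 3 months (0.54, adjusted p = 0.063) and in the fit of all 18 libraries (0.66, adjusted p = 0.117). Hspb6 did not differ past the threshold, with 716 ± 90.9 CPM at 18 months and 698 ± 56.6 CPM at 3 months. The related crystallin Cryab also rose, with 1168, 1130 and 1679 CPM at 18 months, against 547.7, 525.1 and 628.6 CPM at 3 months (1.23 ± 0.16, edgeR adjusted p = 9.26e-05). Of 22 co-chaperones 2 were higher and 2 lower, beside 9.31% and 10.1% of all genes, with a median of 0.07. Of 13 chaperonin and prefoldin subunits 5 were higher and 1 lower (median 0.20), and of 10 mitochondrial partners 0 were higher and 1 lower (median -0.17). Of 4 heat shock factors and regulators 2 were higher and 0 lower (median 0.36). Hsf4 was 1 of these 2, and its call was lost without 18-month replicate 2 or 3 (edgeR adjusted p = 0.0636 and 0.0651). Bag3, the partner of Hspb8, rose by 0.73 ± 0.13 (edgeR adjusted p = 0.00137). Smyd1 fell by 0.53 ± 0.13 and Fkbp4 by 0.48 ± 0.13 (edgeR adjusted p = 0.0118 and 0.0156), and neither fall was called in the fit of all 18 libraries.

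Apart from Dnajc6, a gene of few counts, Hspa4l had the largest rise of the members called. It stood at 9.78, 8.18 and 7.82 CPM at 18 months, against 2.04, 1.36 and 1.80 CPM at 3 months, from 82 to 108 counts a library at 18 months and 14 to 23 at 3 months. The rise was 2.30 ± 0.32 on the log2 scale (edgeR adjusted p = 0.000157). Hsph1 had 88.3, 86.8 and 83.9 CPM at 18 months, against 51.8, 55.3 and 48.8 CPM at 3 months, and rose by 0.74 ± 0.12 (edgeR adjusted p = 0.000668). Hspa4 rose by 0.49 ± 0.12 (edgeR adjusted p = 0.00985). Hsp90ab1 had 1421, 1451 and 1467 CPM at 18 months, against 864.6, 923.7 and 959.0 CPM at 3 months, and Hsp90aa1 had 175.1, 180.9 and 165.2 CPM at 18 months, against 90.2, 105.5 and 117.8 CPM at 3 months. Both pairs of groups were apart, with rises of 0.67 ± 0.12 and 0.74 ± 0.13 on the log2 scale. Hsph1, Hspa4l and Hsp90ab1 thus were higher at 18 than at 3 months and lower in DMD than in WT at 9 months on the TMM scale, in comparisons that share no library.

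Of 10 mitochondrial members 2 fell with age, beside 10.1% of all genes. Both are J-domain proteins of the import motor. Dnajc15 had 37.3, 47.6 and 46.4 CPM at 18 months, against 67.5, 77.8 and 100.3 CPM at 3 months, a fall of 0.90 ± 0.16 (edgeR adjusted p = 0.00106), and Dnajc19 fell by 0.84 ± 0.16 on the log2 scale (edgeR adjusted p = 0.00184). Hspa9 averaged 367 ± 31.9 CPM at 18 months and 370 ± 37.3 CPM at 3 months (log2 fold change -0.01 ± 0.13), and Dnajc28 stood at -0.15 ± 0.15. None of the 9 ER members passed. Hsp90b1, at 130.7, 162.6 and 151.2 CPM at 18 months and 124.8, 117.9 and 103.2 CPM at 3 months, came closest among them (0.37 ± 0.13, edgeR adjusted p = 0.0642). Of 13 ER partners 5 were higher and none lower, beside 9.31% and 10.1% of all genes. Sdf2l1 was among the higher ones and rose by 1.15 ± 0.24 (edgeR adjusted p = 0.00372).

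Among the J-domain genes outside the mitochondrial and ER lists Dnajc21 fell the most with age, with 38.7, 50.8 and 36.3 CPM at 18 months, against 77.0, 75.3 and 95.2 CPM at 3 months (-0.97 ± 0.15, edgeR adjusted p = 0.000485). Dnajc15, Dnajc19 and Dnajc21 were thus called lower both in DMD at 9 months and in WT at 18 months, under all 3 scalings. Dnaja4 fell by 0.81 ± 0.16 and Hspa1l by 0.83 ± 0.19 on the log2 scale. Dnajc2 (-0.41 ± 0.13, adjusted p = 0.0318) and Dnajc8 (-0.62 ± 0.21, adjusted p = 0.0474) passed only narrowly in edgeR. Dnajc2 lost its call without any of 5 of the 6 libraries, all but replicate 1 of 3 months (adjusted p 0.0672 to 0.107), and Dnajc8 likewise, with all but replicate 1 of 18 months (adjusted p 0.0516 to 0.187). Dnajc6 (auxilin, which uncoats clathrin vesicles) had low counts, with 20, 36 and 32 at 18 months, against 6, 1 and 6 at 3 months. Its call as higher rests on the filter being met at 18 months, and it was not called in the fit of all 18 libraries (adjusted p = 0.0975). Immediate early markers, which respond to handling, summed to 421 to 483 CPM at 18 months and to 308, 339 and, in replicate 2, 1070 CPM at 3 months. Without replicate 2 of 3 months Hspb7, Hspb8, Hsph1, Hspa4l and Hsp90ab1 kept their calls. At 9 months the immediate early markers summed to 278 to 546 CPM in p16-null DMD, 230 to 828 CPM in DMD and 339 to 508 CPM in WT. Of the 6 markers 2 were called higher and 0 lower in DMD than in WT, beside 26.4% and 21.8% of all genes. Their log2 fold changes ran from -1.21 to 2.25. In p16-null DMD against WT 1 was higher and 1 lower, beside 27.5% and 22.7% of all genes. The part of handling in any of the differences was not tested.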

How the data were processed

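RNA was sequenced from 18 rat tibialis anterior muscles with a TruSeq RNA library kit, per the labels' protocols. The authors deposited 1 expected count and 1 TPM value per gene and library, which RSEM gives. The submitters' processing notes name Trimmomatic, FastQC, STAR 2.7.10b, RSEM 1.3.3 and the build mRatBN7.2, without their roles. The sources used here give neither the strand setting nor how reads shared between copies were treated.

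Expected counts were rounded and tested with edgeR 4.0.16 (quasi-likelihood, TMM, filterByExpr). The 3 groups of 9 months shared 1 fit (14801 genes) and WT of 18 and 3 months another (13487 genes). P-values were adjusted by Benjamini-Hochberg over all genes, with a threshold of 0.05, and the SE is the log2 fold change over the root of F. Levels are CPM after TMM scaling of all 18 libraries. Replicates differed by more than counting error in every pair (chi-square per degree of freedom 12.5 to 83.7). On simulated counts the test recovered 38% of 2-fold and 78% of 4-fold changes in DMD against WT (14534 genes), 60% and 83% in p16-null DMD against DMD (14553 genes), and 70% and 92% in WT of 18 against 3 months (13281 genes). Each simulation changed only 200 genes, 100 at each fold. Far more were called in DMD against WT and between the ages, so these rates need not hold there.

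The members and gene lists were chosen with earlier results of these data known. Named were 21 fixed members (Hspa1a and Hspa1b among them), up to 4 of the largest non-overlapping called rises and falls per comparison above a mean log2 CPM of 2, and up to 3 partners per list with the smallest p. Other names were chosen after their values were seen. Tried as alternatives were RLE scaling, library totals, DESeq2 1.42.0, limma 3.58.1 on log2(TPM + 1) and log2(TPM + 0.1), no filter, a filter of 5 CPM in 3 libraries, other sets of libraries in the fit, leaving out the 50 most abundant genes, a replicate block, and leaving out each library.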

Additional observations from a re-analysis of the deposited data

Results flagged for a closer look

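Among the 27 members tested for a library far from its group, which was possible in the 6 p16-null DMD libraries alone, 2 values stood apart, and chance marks about 1 in 20 such groups. Dnaja3 was at 66.46 CPM in p16-null DMD replicate 4, while the next highest of that group was 55.6 CPM and the lowest 51.5 CPM. Hspb1 was at 302.7 CPM in the same library, with the next at 223.2 CPM and the lowest at 179.6 CPM. The gap made up 0.727 of the group's range for Dnaja3 and 0.646 for Hspb1, each above Dixon's 95% critical value for 6 samples. This library is the deepest of the 18, at 21992631 counts. Its part in these values was not tested.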

How the results depend on the processing

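The choice of scale changed the counts most. In DMD against WT, 21 members were higher and 7 lower by library totals, and 28 higher and 7 lower by limma with either pseudocount. In p16-null DMD against WT these were 24 and 10 by library totals and 30 and 7 by limma. In WT of 18 against 3 months 15 members were higher by library totals, and 16 higher and 4 lower by limma with either pseudocount. Leaving out 1 library gave 1 to 4 higher and 27 to 32 lower in DMD against WT, 0 to 0 in either direction in p16-null DMD against DMD, 3 to 5 higher and 30 to 34 lower in p16-null DMD against WT, and 8 to 10 higher and 5 to 7 lower between the ages. Without WT replicate 1, the count of rises in DMD was 1. The higher counts in DMD without WT replicate 2 or 3 or DMD replicate 2 or 3 include Dnajb13, which had 0 counts in WT.

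Direction turned in DMD against WT by library totals and by limma on log2(TPM + 1) and log2(TPM + 0.1) for Dnajc11 (0.246, 0.344 and 0.362), Dnajc3 (0.551, 0.641 and 0.661), Dnajc30 (0.135, 0.226 and 0.237), Hsbp1 (0.149, 0.262 and 0.264), Hsf1 (0.021, 0.093 and 0.097), Hsp90aa1 (0.631, 0.782 and 0.788) and Hspa4 (0.345, 0.46 and 0.469). A turn is listed here only for named genes called by TMM or by that other scaling. Turns without a call in either are left out, so a gene listed under limma alone may also have turned by library totals. Under limma alone the listed turns were those of Dnajb6 (0.005 with both), Hspa12b (0.081 and 0.086) and Hspb8 (0.606 and 0.607). In p16-null DMD against WT the turns listed under library totals and limma were those of Hspa8 (0.17, 0.32 and 0.32) and Hspb8 (0.534, 0.644 and 0.645). Those listed under limma alone were of Dnaja1 (0.145 and 0.147), Dnajb1 (0.442 and 0.462), Hsp90aa1 (0.586 and 0.591), Hsp90ab1 (0.082 with both) and Hspb1 (0.658 and 0.659). The median of all genes in DMD against WT was 0.11 by TMM, 0.76 by library totals and 0.64 by limma on log2(TPM + 1). Hspa5 in DMD also missed the threshold with RLE scaling (adjusted p = 0.0564) and without the 50 most abundant genes (adjusted p = 0.0523).

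With all 18 libraries in 1 fit, the calls between the ages of Hspb1 (adjusted p = 0.117), Hspa1l (0.0628), Dnajc6 (0.0975), Dnajc2 (0.078), Hsf4 (0.0996), Smyd1 (0.12) and Fkbp4 (0.115) were lost.

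Same-numbered libraries did not deviate together (correlations of -0.198 to 0.055), so the numbers were not taken to pair them. With a replicate block 3 members were higher and 27 lower in DMD against WT, 0 and 0 in p16-null DMD against DMD, 2 and 31 in p16-null DMD against WT, and 10 and 8 between the ages. In DMD against WT the block ended the calls of Dnajb3 (adjusted p = 0.0605), Dnajc11 (0.0655), Dnajc30 (0.096), Hspa12b (0.0667), Hsf1 (0.0656) and Hsf4 (0.0852). The calls of Hspa5 (0.37, adjusted p = 0.198), Hspa8 (adjusted p = 0.0564) and Hspbap1 (adjusted p = 0.09) in p16-null DMD against WT were lost with the block. With 3 libraries in most groups, members at a few CPM, such as Hspa4l, Dnajb3 and Dnajc6, rest on few counts.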
